A study of Mus musculus with 18 samples.

Results

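The SIN3 histone deacetylase complex was examined through the mRNA of 10 of its genes, chosen by gene name from the 31643 genes of the deposited table: Sin3a, Sin3b, Hdac1, Hdac2, Sap18, Sap30, Sap130, Ing1, Ing2 and Rbbp4. All 10 passed the filter on low counts in every comparison. The RNA came from the mouse line GC1spg, which serves as a model of spermatogonia, in 18 libraries of poly(A) RNA. The groups were siGFP cells with busulfan (Bu, n = 4), siTGR5 cells with Bu (n = 4), siTGR5 cells with DMSO (n = 5) and siGFP cells with DMSO (n = 5), where siGFP is the control siRNA and siTGR5 the one against TGR5, a receptor for bile acids. The study's methods give Bu at 200 μM for 24 h for its GC1spg libraries without naming an siRNA. The siGFP groups were taken to be these libraries, an assumption, and the dose and time of the siTGR5 groups are not given in the sources used here. The study's methods describe starved cells of 1 line and no separate cultures for the replicates, so p-values reflect only how far these libraries spread, which may be technical.

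The SIN3 complex is a transcriptional corepressor. A large scaffold protein, SIN3A or SIN3B, is brought to DNA by sequence-specific factors such as the MAX partners of the MXD family, and carries the deacetylases HDAC1 and HDAC2, which remove acetyl groups from histone tails. RBBP4 is a histone-binding protein shared with other chromatin complexes, the SAP proteins hold the complex together or link it to other factors, and ING1 and ING2 bind methylated lysine 4 of histone H3. The study names SIN3A as a candidate regulator of many Bu-altered genes. In the mouse, loss of Sin3a in the male germ line causes the death of germ cells.

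In siGFP cells, Bu was followed by higher Hdac2 and Sap30 mRNA, by 13.9% and 18.1%, and in siTGR5 cells by higher Hdac2, Sap30 and Rbbp4 mRNA, by 7.84%, 14.4% and 7.83%. The scaffold genes Sin3a and Sin3b did not pass the test in any comparison. The largest difference among the 10 genes was not one with Bu: Sap18 mRNA was 36.7% higher in siTGR5 cells than in siGFP cells, both in DMSO. These calls are from edgeR's quasi-likelihood F-test at a Benjamini-Hochberg adjusted p under 0.05 over all genes tested, and levels are CPM, counts scaled to a common library total with TMM factors.

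The promoters of the genes that passed the test in at least 1 comparison are shown because the study also names the E2F family as a candidate regulator. They are the 250 bases before the gene start in RefSeq (build GRCm38.p6), 5′ to 3′, and the same table held such a sequence for 8 of the 10 members, all but Hdac1 and Sap130. Capitals mark matches, on either strand, of the letters TTTNNCGC (a loose form of an E2F site, N being any base), TTTGAA (the cell cycle element CHR), CCAAT and GGGCGG (a GC box). None of the matches overlapped one of another kind.
Hdac2 (chr10:36974294-36974543, plus strand): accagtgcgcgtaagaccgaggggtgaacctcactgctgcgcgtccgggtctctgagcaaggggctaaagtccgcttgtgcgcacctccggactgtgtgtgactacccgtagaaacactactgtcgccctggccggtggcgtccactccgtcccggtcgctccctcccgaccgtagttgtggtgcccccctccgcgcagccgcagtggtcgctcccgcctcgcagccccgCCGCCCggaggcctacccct
Sap30 (chr8:57487861-57488110, minus strand): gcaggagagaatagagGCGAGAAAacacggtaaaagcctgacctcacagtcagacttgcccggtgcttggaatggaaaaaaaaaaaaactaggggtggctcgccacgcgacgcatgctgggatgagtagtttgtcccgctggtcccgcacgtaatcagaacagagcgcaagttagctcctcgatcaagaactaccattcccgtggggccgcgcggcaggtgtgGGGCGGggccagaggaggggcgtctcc
Rbbp4 (chr4:129335371-129335620, minus strand): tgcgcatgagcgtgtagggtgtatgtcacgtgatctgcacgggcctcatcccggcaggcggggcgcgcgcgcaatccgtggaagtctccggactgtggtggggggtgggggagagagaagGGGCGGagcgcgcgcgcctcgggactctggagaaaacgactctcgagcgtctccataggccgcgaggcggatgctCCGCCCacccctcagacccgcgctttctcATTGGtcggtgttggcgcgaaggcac
Sap18 (chr14:57797939-57798188, plus strand): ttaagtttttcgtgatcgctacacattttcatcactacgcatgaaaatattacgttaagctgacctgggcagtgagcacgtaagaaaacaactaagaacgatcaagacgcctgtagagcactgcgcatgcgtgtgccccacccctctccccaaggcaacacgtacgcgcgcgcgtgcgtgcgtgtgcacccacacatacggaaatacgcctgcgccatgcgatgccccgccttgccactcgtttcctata
Sap30 had 1 E2F match, 234 bases before the start, and a GC box 27 bases before it. The E2F letters occurred in 4.28% of the 32851 promoters of the table, and in 1 other member, Sin3b, 58 bases before the start. Hdac2 had 1 GC box (20 bases before the start), Rbbp4 had GC boxes 130 and 55 bases and a CCAAT match 26 bases before it, and the Sap18 window held none of these letters. Sin3b also held a CHR match, 217 bases before the start, Sin3a a GC box and CCAAT matches 60 and 33 bases before it, and Ing1 and Ing2 GC boxes. CHR, CCAAT and GC box letters were in 16.0%, 33.8% and 32.7% of all promoters. A match is a run of letters and not a measured site.

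The libraries held between 24745523 and 49638166 counts. Gpbar1, the gene of TGR5, was low everywhere (4 to 40 counts a library) and averaged 0.355 ± 0.147 CPM in siTGR5 DMSO libraries and 0.70 ± 0.180 CPM in siGFP DMSO libraries (SD, n = 5 each; log2 fold change -0.99 ± 0.28, SE, adjusted p = 0.0135). With Bu it averaged 0.348 ± 0.055 CPM in siTGR5 libraries and 0.463 ± 0.180 CPM in siGFP libraries (SD, n = 4 each). Of 15 germ cell markers in the table, 3 had a median over 1 CPM (Gfra1, Id4 and Uchl1) and 8 a median of 0, among them Dazl, Zbtb16 and Stra8, while 7 of 8 Sertoli cell markers were over 1 CPM. The Sertoli markers summed to 351 to 374 CPM in siGFP Bu and 405 to 441 CPM in siGFP DMSO libraries, and to 362 to 403 CPM in siTGR5 Bu and 408 to 428 CPM in siTGR5 DMSO libraries. Retinal transcripts, counted with a list of rod photoreceptor markers, exceeded 1 CPM in sum in 6 libraries (siGFP Bu 2 and 4, siTGR5 Bu 3, siTGR5 DMSO 4, siGFP DMSO 1 and 5), after markers with a median over 0.1 CPM were left out of the sum. All 14 rod markers summed to 16.2 to 57.2 CPM in siGFP Bu, 15.3 to 28.4 CPM in siTGR5 Bu, 14.8 to 59.1 CPM in siTGR5 DMSO and 16.3 to 119 CPM in siGFP DMSO libraries. Only 1 of the 14, Rom1, had a median over 1 CPM. It had 13.6 to 19.4 CPM over the 18 libraries, so the lowest sums are mostly Rom1. Of 19 tested transcripts that are retained in the nucleus, such as Malat1 and Neat1, 16 were lower and none higher with Bu in siGFP cells, and 12 were lower with Bu in siTGR5 cells. Their mean log2 CPM was 4.34 to 4.64 in siGFP Bu against 4.77 to 4.93 in siGFP DMSO libraries, and 4.61 to 4.79 in siTGR5 Bu against 4.83 to 5.08 in siTGR5 DMSO libraries. Under either siRNA, this mean did not overlap between Bu and DMSO libraries. A fit with it as a covariate can thus hardly tell it apart from Bu. Results are given without the 6 libraries or with this mean as a covariate where that changes a call. What part these differences had in the result was otherwise not tested.

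Sin3a encodes the scaffold that the study names. It had 78.1 to 86.9 CPM in siGFP Bu against 82.4 to 89.1 CPM in siGFP DMSO libraries, and 77.7 to 83.3 CPM in siTGR5 Bu against 79.9 to 84.1 CPM in siTGR5 DMSO libraries. The groups overlapped in each case. The log2 fold change with Bu was -0.053 (95% interval -0.14 to 0.035, adjusted p = 0.369) in siGFP cells and -0.022 (-0.092 to 0.048, adjusted p = 0.652) in siTGR5 cells. These intervals leave room for changes of about the size of those called for Hdac2 in siTGR5 cells, in the lower direction. In bulk RNA, fewer cells that express a gene and less of its RNA per cell cannot be told apart.

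Sin3b, which encodes the other scaffold, had 75.6 to 83.8 CPM in siGFP Bu against 72.05 to 78.3 CPM in siGFP DMSO libraries. In siTGR5 cells it had 76.9 to 80.4 CPM with Bu against 71.9 to 77.6 CPM in DMSO. The log2 fold changes were 0.08 (-0.011 to 0.17, adjusted p = 0.178) and 0.067 (-0.0037 to 0.14, adjusted p = 0.144), and neither passed the test. The ratio of Sin3a to Sin3b counts within a library does not depend on scaling. Its mean log2 value was 0.055 ± 0.13 in siGFP Bu against 0.19 ± 0.074 in siGFP DMSO libraries (SD, n = 4 and 5), a difference of -0.13 with p = 0.0794 by an exact two-sided permutation test and 0.214 after adjustment over 9 such comparisons. In siTGR5 cells it was 0.034 ± 0.066 with Bu against 0.12 ± 0.066 in DMSO (difference -0.091, exact permutation p = 0.0952, adjusted 0.214). Without the 6 libraries with rod transcripts the siGFP difference was -0.030, with an exact permutation p of 0.70 in a comparison of 3 and 2 libraries that could not reach 0.05.

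Hdac2 encodes a class I deacetylase and was the member with the smallest p for Bu in siGFP cells. It had 88.3, 89.8, 84.1 and 87.5 CPM in siGFP Bu libraries 1 to 4, against 79.0, 74.4, 71.9, 77.4 and 84.9 CPM in siGFP DMSO libraries 1 to 5. All but 1 DMSO library (replicate 5) lay below every Bu library, so the groups overlapped by that library alone. The log2 fold change was 0.19 ± 0.047 (SE, adjusted p = 0.0082). In siTGR5 cells Hdac2 had 80.0, 78.1, 82.2 and 84.3 CPM with Bu, against 76.9, 74.3, 77.6, 76.9 and 73.9 CPM in DMSO. There every Bu library was above every DMSO library, and the log2 fold change was 0.11 ± 0.032 (adjusted p = 0.0169). Of all genes tested, 24.8% separated in this way in siTGR5 cells and 23.2% in siGFP cells. In siTGR5 cells the Hdac2 call was lost without siTGR5 Bu replicate 3 or 4 (log2 fold changes 0.096 and 0.086, adjusted p = 0.0674 and 0.0816) and without the libraries with rod transcripts (0.11, adjusted p = 0.0772). It was also lost with all 18 libraries in 1 fit (0.10, adjusted p = 0.058) and with the nuclear-retained mean as a covariate (0.099, adjusted p = 0.17). In siGFP cells it was 0.22 without the libraries with rod transcripts (adjusted p = 0.00831) and 0.33 with the nuclear-retained mean as a covariate, where the adjusted p was 0.0695.

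Hdac1, the paralog of Hdac2, gave only 208 to 402 counts a library, against 2050 to 4081 for Hdac2. It had 7.28 to 9.39 CPM in siGFP Bu against 7.39 to 8.37 CPM in siGFP DMSO, and 8.58 to 9.34 CPM in siTGR5 Bu against 7.56 to 9.63 CPM in siTGR5 DMSO libraries. Neither log2 fold change passed the test (0.059, -0.11 to 0.23, adjusted p = 0.634, and 0.12, -0.040 to 0.28, adjusted p = 0.25). The counts of Hdac1 are uncertain because the authors kept only uniquely aligned reads, and 58.7% of the 50-base words of its annotated transcripts also occur in other genes, and 56.4% of all its words occur in Gm10093, an intronless copy on chromosome 17 that the table lists as protein-coding and GENCODE as a processed pseudogene. Over 1444 aligned coding bases, Hdac1 and Gm10093 were 99.4% identical, and 18 of 24 windows of 60 bases had no difference. The window with most differences, coding bases 421 to 480 of Hdac1 in GRCm38, is printed to show how little separates the genes, with its 4 differing bases in capitals.
Hdac1 (chromosome 4): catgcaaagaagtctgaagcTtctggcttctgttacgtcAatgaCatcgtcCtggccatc
Gm10093 (chromosome 17): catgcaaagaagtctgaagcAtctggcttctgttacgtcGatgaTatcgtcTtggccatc
A 50-base read from most of the coding sequence thus has no unique place. Gm10093 itself was given 60 to 138 counts a library. Its log2 fold change with Bu was 0.15 ± 0.14 in siGFP cells and 0.21 ± 0.15 in siTGR5 cells (adjusted p = 0.463 and 0.308). The count ratio of Hdac1 to Hdac2 carries the same limit, and its differences did not pass the test (adjusted exact permutation p = 0.214 to 0.889 over 3 comparisons).

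**Figure D1:**
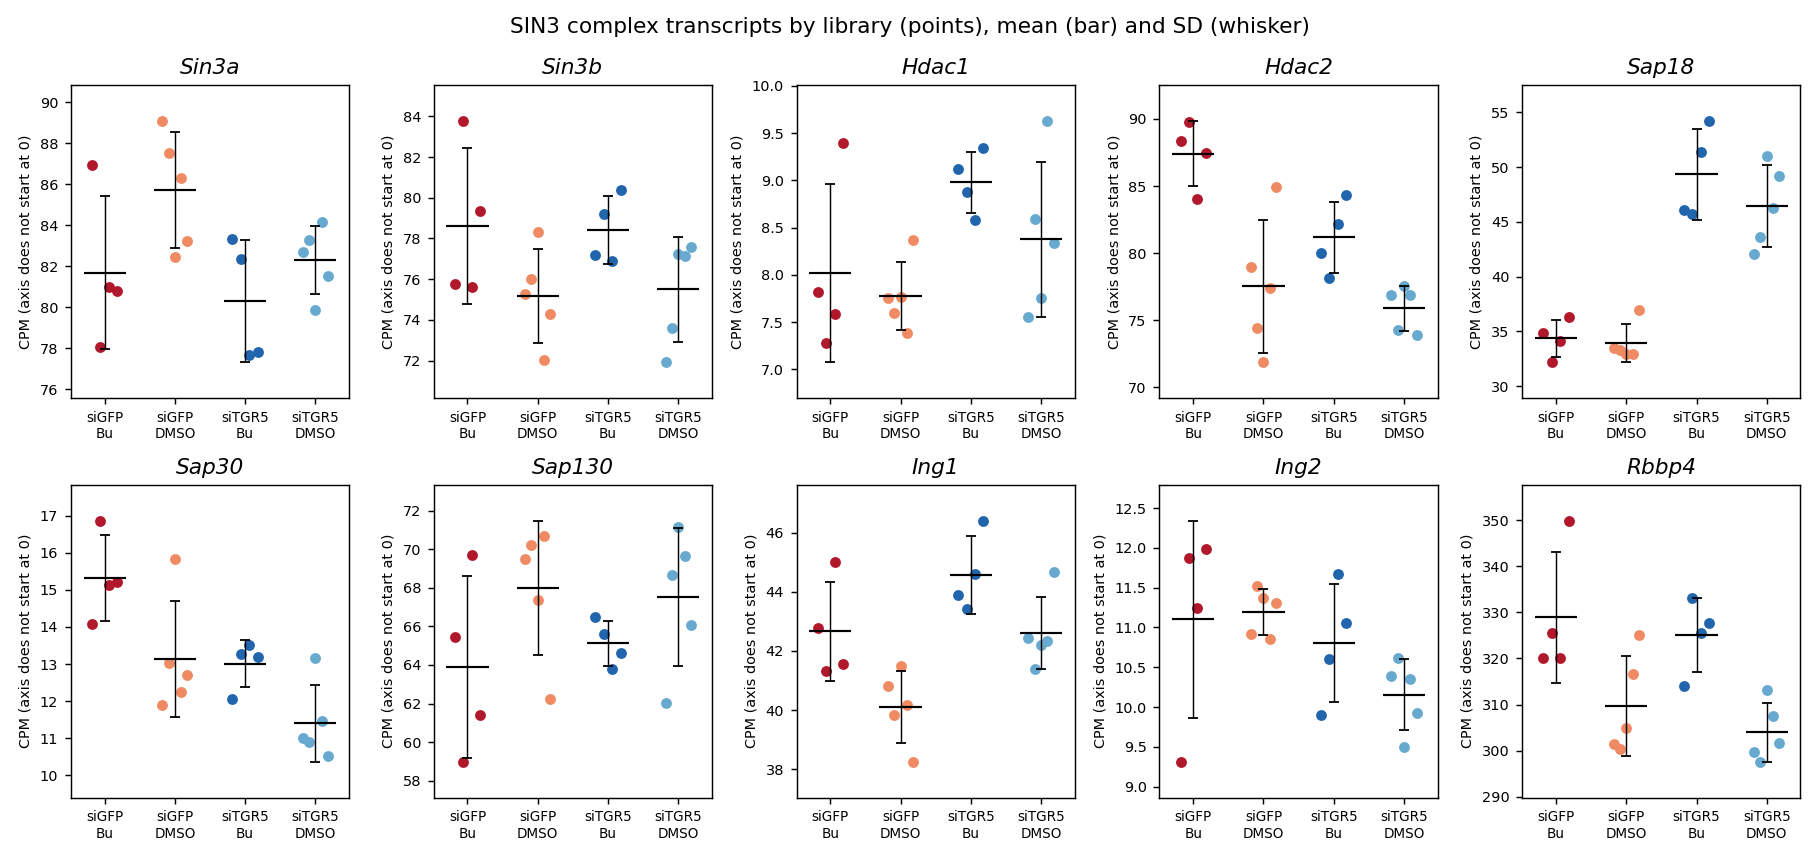
CPM of each SIN3 complex gene in each library (points) with the group mean (bar) and SD (whisker), by group, on an axis that does not start at 0. Hdac2, Sap30 and Rbbp4 lie higher in Bu than in DMSO libraries of each siRNA, with any overlap due to 1 DMSO library, and Sap18 lies higher in both siTGR5 groups (42.1 to 54.2 CPM) than in both siGFP groups (32.2 to 37.0 CPM).

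Sap30 encodes a small subunit that contacts the scaffold. It had 14.1, 16.9, 15.1 and 15.2 CPM in siGFP Bu libraries 1 to 4, against 11.9, 13.02, 15.8, 12.2 and 12.7 CPM in siGFP DMSO libraries 1 to 5. Apart from DMSO replicate 3, which was above 3 of the Bu libraries, the groups did not meet. The log2 fold change was 0.24 ± 0.084 (SE, adjusted p = 0.0439). In siTGR5 cells it had 12.1, 13.3, 13.5 and 13.2 CPM with Bu, against 10.99, 10.9, 13.2, 11.5 and 10.5 CPM in DMSO, and again 1 DMSO library, replicate 3, reached into the Bu libraries. There the log2 fold change was 0.19 ± 0.07 (adjusted p = 0.0437). Both calls lie just under the threshold. In siGFP cells the call was lost when any of 7 of the 9 libraries was left out (all but Bu replicate 1 and DMSO replicate 3, adjusted p up to 0.123). In siTGR5 cells it was lost without any of 7 of 9 (all but Bu replicate 1 and DMSO replicate 3, adjusted p up to 0.13). There it was also lost with DESeq2 (0.19, adjusted p = 0.0588) and with all 18 libraries in 1 fit (0.19, adjusted p = 0.0879). Without the libraries with rod transcripts the log2 fold change was 0.10 in siGFP cells (adjusted p = 0.534) and 0.18 in siTGR5 cells (adjusted p = 0.165). In siGFP cells that fit left out 2 of the Bu and 2 of the DMSO libraries and kept DMSO replicate 3. With the nuclear-retained mean as a covariate the log2 fold changes were 0.11 and 0.092 (adjusted p = 0.774 and 0.562). Sap30 is a gene of 337 to 651 counts a library.

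Rbbp4 encodes a WD-repeat protein that binds histone H4, and is the most abundant member by counts (8116 to 15616 a library). It had 314.1, 333.1, 325.5 and 327.7 CPM in siTGR5 Bu libraries, against 299.8, 297.6, 313.2, 307.6 and 301.7 CPM in siTGR5 DMSO libraries. The lowest Bu library stood just above the highest DMSO library, so the groups did not overlap. The log2 fold change was 0.11 ± 0.028 (SE, adjusted p = 0.00716) and stayed called with each library left out in turn (adjusted p up to 0.0407), but not with the nuclear-retained mean as a covariate (0.09, adjusted p = 0.139). In siGFP cells Rbbp4 had 320.1, 325.6, 320.2 and 349.8 CPM with Bu, against 301.4, 300.5, 304.9, 316.7 and 325.0 CPM in DMSO, and only DMSO replicate 5 reached the Bu libraries. The log2 fold change of 0.10 ± 0.04 missed the threshold (adjusted p = 0.0682), and DESeq2 called it (0.099, adjusted p = 0.0491). It was also called with the nuclear-retained mean as a covariate, where the estimate was 0.28 (adjusted p = 0.0393). Without a covariate, the difference of the Bu effect between the siRNAs was 0.007 (95% interval -0.09 to 0.10, adjusted p = 0.971). Of the 50-base words of Rbbp4, 32.7% occur in other genes, 16.6% in the overlapping long noncoding gene Gm26722 alone, and 782 bases of its exons overlap Sync on the opposite strand. The kit keeps the strand, but the strand setting of the counting is not given in the sources used here, so reads of these partners may be included.

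Sap130, which encodes a SIN3-associated protein, gave a log2 fold change with Bu of -0.074 (-0.19 to 0.038, adjusted p = 0.324) in siGFP cells and of -0.040 (-0.12 to 0.042, adjusted p = 0.474) in siTGR5 cells. It had 59.0 to 69.7 CPM in siGFP Bu against 62.2 to 70.7 CPM in siGFP DMSO, and 63.8 to 66.5 CPM in siTGR5 Bu against 62.0 to 71.1 CPM in siTGR5 DMSO libraries. Sap130 and Sin3a had negative estimates in both Bu comparisons, and neither gene passed the test.

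Ing1 and Ing2 encode alternative readers of methylated histone H3. Ing1 had 41.3 to 44.99 CPM in siGFP Bu against 38.3 to 41.5 CPM in siGFP DMSO libraries, a log2 fold change of 0.10 ± 0.042 (adjusted p = 0.0789), and 43.4 to 46.4 CPM in siTGR5 Bu against 41.4 to 44.7 CPM in siTGR5 DMSO libraries (0.078 ± 0.038, adjusted p = 0.13). Ing2 had 9.31 to 12.0 CPM in siGFP Bu against 10.9 to 11.5 CPM in siGFP DMSO libraries, where the estimate was 0.0013 and changed sign with the scaling (adjusted p = 0.991), and 9.90 to 11.7 CPM in siTGR5 Bu against 9.50 to 10.6 CPM in siTGR5 DMSO libraries (0.099 ± 0.066, adjusted p = 0.279). Ing2 spread more within siGFP Bu than in the other groups, with replicate 1 (9.31 CPM) lower than the other three.

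**Figure D2:**
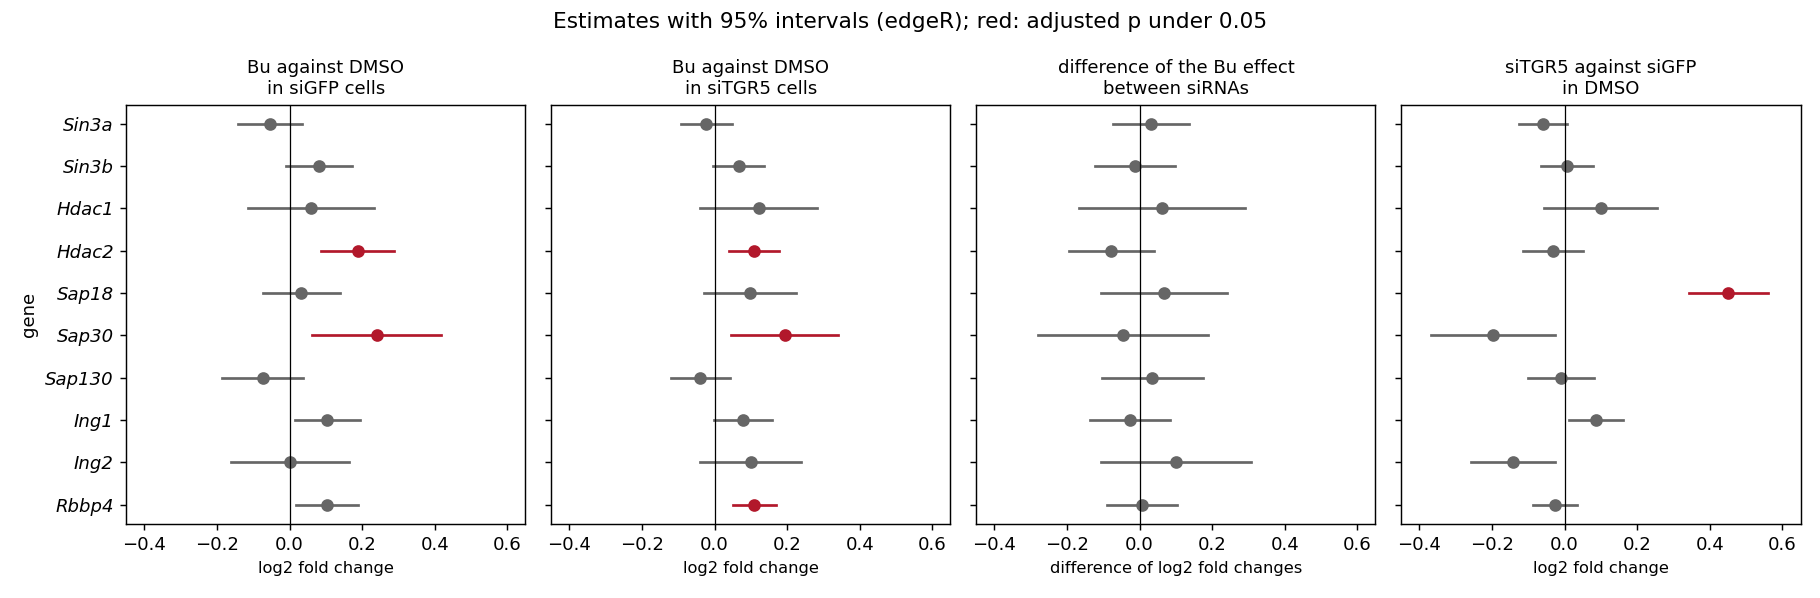
Log2 fold change (points) with its 95% interval (lines) of the 10 genes in the 2 Bu comparisons, the difference of the Bu effects between siRNAs and siTGR5 against siGFP in DMSO. Red marks an adjusted p under 0.05. The called genes are Hdac2 and Sap30 with Bu under both siRNAs, Rbbp4 with Bu in siTGR5 cells and Sap18 for siTGR5.

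Counted over the list, 2 of the 10 members were called in siGFP cells with Bu, both higher, against 28.1% of all genes tested (14.3% higher and 13.8% lower). In siTGR5 cells 3 of 10 were called, all higher, against 30.7% of all genes (15.5% higher and 15.2% lower). The share of members called was thus close to that of all genes. The median log2 fold change of the members was 0.07 in siGFP cells and 0.099 in siTGR5 cells, against 0.0031 and 0.0037 for all genes tested, and 8 of 10 estimates were positive in each. The 2 Bu comparisons share no library, but the members were chosen with earlier results of these data known. The share of positive estimates over all genes was not counted, and a shift of the members as a set was not tested. The spread of the calls over settings was wide: with all 18 libraries in 1 fit, 4 members were called in siGFP cells and 1 in siTGR5 cells, without the libraries with rod transcripts 1 and 1, and with the nuclear-retained mean as a covariate 1 and 0. That 1 was Rbbp4, which the fit without the covariate had not called, and neither Hdac2 nor Sap30 kept its call there. The nuclear-retained mean did not overlap between Bu and DMSO libraries, so calls lost or gained with it cannot be read apart from Bu.

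Whether Bu acted differently under the 2 siRNAs was tested as an interaction over all 18 libraries. None of the 10 members was called by edgeR or DESeq2, and none had an unadjusted p under 0.05 in edgeR, against 1.37% of all genes called (0.724% with a higher and 0.649% with a lower effect in siTGR5 cells). Hdac2 had the smallest p, with a difference of -0.078 (95% interval -0.20 to 0.04, adjusted p = 0.608), and Ing2 the largest positive estimate (0.099, -0.11 to 0.31, adjusted p = 0.733). The Bu effect on Rbbp4, called in siTGR5 cells alone, was thus not shown to differ between them.

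The TGR5 siRNA itself, compared in DMSO, went with a change of Sap18, which encodes a ubiquitin-fold protein also found in splicing-associated complexes. Sap18 had 42.1, 43.6, 51.0, 46.2 and 49.2 CPM in siTGR5 DMSO libraries 1 to 5, against 33.5, 33.3, 32.9, 32.9 and 37.0 CPM in siGFP DMSO libraries 1 to 5. No siTGR5 library reached down to the siGFP libraries. The log2 fold change was 0.45 ± 0.052 (SE, adjusted p = 8.43e-06), the gene ranked 199 of 14292 by p, and the call held under all alternatives tried, between 0.41 and 0.49 on the log2 scale. The same was seen in the Bu libraries, which this comparison did not use: 46.0, 45.8, 51.4 and 54.2 CPM in siTGR5 Bu against 34.8, 32.2, 34.1 and 36.3 CPM in siGFP Bu libraries, 1.44 times as high (exact two-sided permutation p = 0.0286, the smallest that 4 against 4 libraries allow, in a comparison chosen after its values were seen). Bu did not change Sap18 beyond the spread under either siRNA (0.033 ± 0.049, adjusted p = 0.669, in siGFP cells and 0.098 ± 0.06, adjusted p = 0.235, in siTGR5 cells). Sap18 has a near-identical copy, Sap18b, with which it shares 13.6% of the 50-base words of its annotated transcripts. The median transcript of Sap18 has 590.5 bases, that of Sap18b 789, and all exons of Sap18 together 5439. The part of the shorter Sap18 transcripts that is shared was not measured. Only uniquely aligned reads were kept, so the Sap18 counts may leave out part of its mRNA. Sap18b was given 48 to 75 counts in siTGR5 DMSO and 34 to 66 in siGFP DMSO libraries (0.31 ± 0.17, adjusted p = 0.184), against 934 to 2523 counts of Sap18 over all libraries.

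The other 9 members did not pass the test for the siRNA, and 1 of 10 called compares with 28.3% of all genes (13.8% higher and 14.4% lower). Ing2 had 9.50 to 10.6 CPM in siTGR5 DMSO against 10.9 to 11.5 CPM in siGFP DMSO libraries, without overlap, as for 18.8% of all genes, and missed the threshold (-0.14 ± 0.055, adjusted p = 0.0638). Ing1 had an opposite estimate (0.086 ± 0.035, adjusted p = 0.078). Within libraries, the log2 ratio of Ing1 to Ing2 was 2.07 ± 0.088 in siTGR5 DMSO against 1.84 ± 0.063 in siGFP DMSO libraries (SD, n = 5 each), again without overlap. The exact permutation p of 0.00794 was the smallest that 5 against 5 libraries allow, and 0.0714 after adjustment over the 9 comparisons. Sap30 had 10.5 to 13.2 CPM in siTGR5 DMSO and 11.9 to 15.8 CPM in siGFP DMSO libraries (-0.20 ± 0.081, adjusted p = 0.0778). The siRNA comparison shares its siTGR5 DMSO and siGFP DMSO libraries with the Bu comparisons, so a gene's values in them are not independent.

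**Figure D3:**
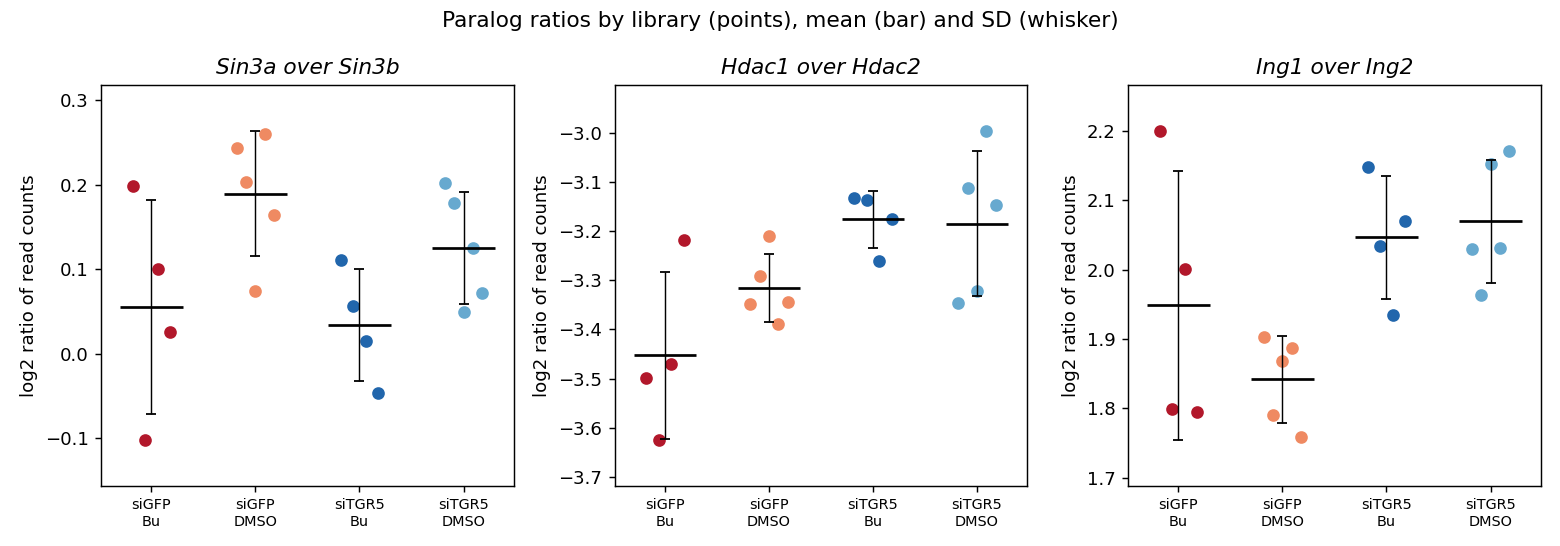
Log2 ratio of read counts within each library (points) with mean (bar) and SD (whisker) for Sin3a over Sin3b, Hdac1 over Hdac2 and Ing1 over Ing2, by group. Ing1 over Ing2 is 1.963 to 2.1704 in siTGR5 DMSO and 1.76 to 1.90 in siGFP DMSO libraries, without overlap.

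Levels between genes were compared only per length, and the order changed with the length used. On the authors' scale, normalized signal per kb of the median annotated transcript, Rbbp4 was highest in siGFP DMSO libraries (4020 ± 136, SD, n = 5), followed by Sin3b (2716 ± 81.5), Sap18 (1913 ± 97.4) and Hdac2 (1773 ± 114), whose ranges overlapped, then Ing1 (710.03 ± 20.4), Sin3a (589 ± 20.99) and Sap130 (563 ± 29.6), which overlapped, Sap30 (371 ± 43.3) and Hdac1 (322 ± 14.9), which overlapped, and Ing2 (161 ± 4.51). The CPM without TMM factors per kb of all annotated exons gave another order: Rbbp4 (35.0 ± 1.22), Hdac2 (17.1 ± 1.10), Sin3a (15.7 ± 0.497), Ing1 (11.6 ± 0.33), Sap30 (11.01 ± 1.34), Sin3b (10.1 ± 0.345), Sap130 (7.39 ± 0.363), Sap18 (6.16 ± 0.33), Ing2 (3.66 ± 0.119) and Hdac1 (2.23 ± 0.111). There the ranges of Hdac2 and Sin3a, of Ing1 and Sap30, and of Sap30 and Sin3b overlapped. Sin3b was the second on one scale and below Sin3a on the other, its median transcript having 921.5 bases and its exons together 7354. Rbbp4 was first on both scales and in every group. Which scaffold is the more abundant cannot be read from these values. Neither scale corrects for reads without a unique place, which were not counted. Of the words of Hdac1, 58.7% occur in other genes, against 32.7% for Rbbp4 and 15.8% for Sap18. The counts of these genes may thus leave out part of their mRNA. Whether Hdac1 is the scarcest member, or how far it lies below Hdac2, cannot be read from these values either.

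**Figure D4:**
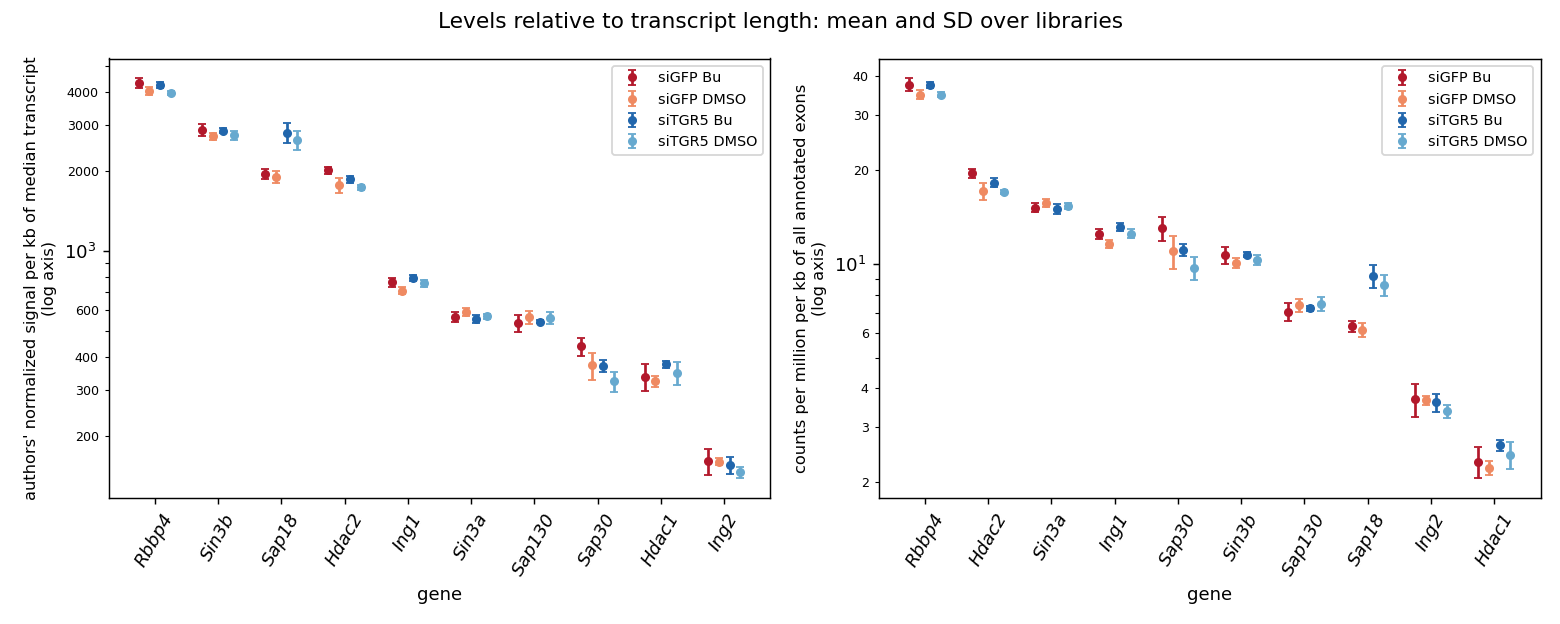
Mean and SD over libraries of each gene on a log axis, on the authors' scale per kb of median transcript (left) and as CPM without TMM factors per kb of all annotated exons (right), with genes sorted by siGFP DMSO. Rbbp4 is highest on both and Sap130 keeps its place, while all other genes change place between them.

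Of the other subunits of the complex, 12 were tested with Bu in siGFP cells and 2 were higher and 2 lower (28.1% of all genes tested were called), with a median log2 fold change of 0.016. Brms1 (0.21 ± 0.045, adjusted p = 0.00281) and Rbbp7, the paralog of Rbbp4 (0.12 ± 0.034, adjusted p = 0.0205), rose, and Ogt, the O-GlcNAc transferase (-0.36 ± 0.064, adjusted p = 0.000815), and Phf12 (-0.21 ± 0.042, adjusted p = 0.00182) fell. In siTGR5 cells these 4 moved the same way and passed the test (0.12, 0.11, -0.25 and -0.10), with 3 of 12 called higher and 2 lower (30.7% of all genes called). Of 14 factors that recruit SIN3, Tgif1 rose (0.17 ± 0.044) and the MAX partners Mnt (-0.23 ± 0.051) and Mxi1 (-0.15 ± 0.037) fell in siGFP cells, and 2 rose and 3 fell in siTGR5 cells, against the same shares of all genes.

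Other complexes also hold these deacetylases. The NuRD list leaves out the subunits shared with SIN3, Hdac1, Hdac2, Rbbp4 and Rbbp7. Of these, Hdac2, Rbbp4 and Rbbp7 were called higher with Bu, as given above. None of the 10 listed NuRD subunits passed in siGFP or in siTGR5 cells with Bu by edgeR or DESeq2 (1 and 3 with an unadjusted p under 0.05). Of all genes, 28.1% and 30.7% were called. In DMSO, 5 of these 10 were lower in siTGR5 than in siGFP cells, against 14.4% of all genes. Among them were the remodeler gene Chd4 (-0.12 ± 0.025) and Gatad2a (-0.098 ± 0.034). Of 7 CoREST subunits in siGFP cells, the demethylase gene Kdm1a rose (0.16 ± 0.037) and Rcor3 (-0.31 ± 0.063) and Phf21a (-0.27 ± 0.046) fell. Of 6 NCoR/SMRT subunits, Tbl1x (-0.14 ± 0.044) and Tbl1xr1 (-0.15 ± 0.054) fell. Among 9 other deacetylases, Hdac7 (-0.28 ± 0.04), Hdac10 (-0.23 ± 0.055) and Hdac4 (-0.15 ± 0.05) fell in siGFP cells and none rose, and 5 of 9 fell in siTGR5 cells, against 13.8% and 15.2% of all genes called lower. Hdac2 and the called deacetylases thus had opposite signs. Of the 9 estimates in siGFP cells, 7 were negative and 2 positive, Hdac3 (0.029 ± 0.044) and Hdac8 (0.019 ± 0.056), neither called. Of 12 acetyltransferases, Hat1 rose (0.22 ± 0.045) and Kat6b (-0.29 ± 0.058) and Crebbp (-0.22 ± 0.058) fell in siGFP cells. The lists had medians of -0.032 (NuRD), -0.10 (CoREST), -0.093 (NCoR/SMRT), -0.12 (other deacetylases) and -0.0037 (acetyltransferases).

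**Figure D5:**
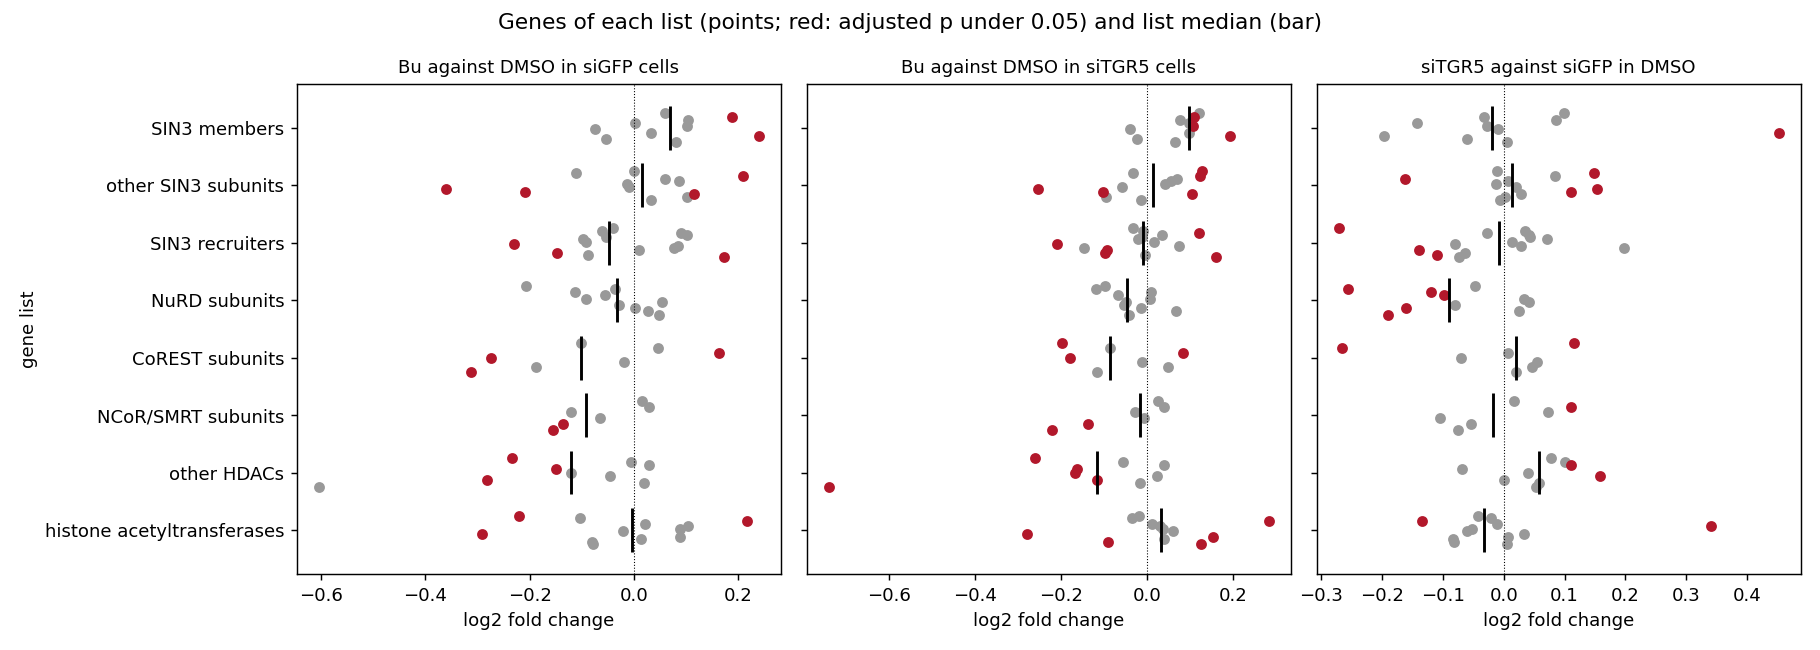
Log2 fold changes of the genes of each list (points, red for an adjusted p under 0.05) and the list median (bar), in both Bu comparisons and for siTGR5 against siGFP in DMSO. The members' median lies at 0.07 and 0.099 with Bu, the other deacetylases' at -0.12 in both, and in the last panel the single member point at 0.45 is Sap18.

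The study lists 335 of the Bu-altered genes as potential SIN3A targets, with no member of the complex among them. They were chosen on the study's own Bu and DMSO libraries, taken here to be the siGFP ones, so their direction there (138 higher, 197 lower) is not independent evidence. In siTGR5 cells, which under that assumption took no part in the choice, 126 were called higher and 154 lower with Bu, and 55 were not called. The median log2 fold change was -0.16, and 15.5% and 15.2% of all genes tested were called higher and lower. All 335 were chosen as Bu-altered in the same line, so all genes are not a matching background. Bu-altered genes outside the list were not compared, and these calls do not bear on SIN3A. Their Bu effect differed between siRNAs in 19 genes, 13 in the higher and 6 in the lower direction, against 1.37% of all genes. The siGFP libraries enter this difference too, so the count is not independent of the choice and 1.37% is not a matching background.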

How the data were processed

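The 18 libraries were stranded poly(A) RNA of GC1spg cells. Single-end reads of 50 bases were aligned by the authors to mm10 (Hisat2, Bowtie2), and unique alignments were counted for each Ensembl gene by HTSeq. The notes of the submitters also list TopHat2, Bowtie2 2.1.0 and DESeq2 1.0.19. The deposited table of 31643 genes holds read counts, tested here, and a normalized signal divided by the authors by the median transcript length, used here for levels between genes alone. The authors' 18 other normalized columns and 9 columns of their own comparisons (fold changes and p-values) were not used.

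Counts of all genes were fitted by edgeR 4.0.16 under R 4.3.3 (TMM, filterByExpr with minimum count 10 and total 15, quasi-likelihood F-test, Benjamini-Hochberg, adjusted p under 0.05). Count ratios of paralogs were compared by exact two-sided permutation (scipy 1.17.1). Total counts were 24745523 to 49638166 a library. Alternatives were DESeq2 1.42.0, RLE factors, library totals, no filter, all 18 libraries in 1 fit, the replicate number as a block, the nuclear-retained mean as a covariate, and leaving out libraries. The fit was tested on simulated data. Named genes were all members, Gpbar1 and, in each other list, up to 4 genes with the smallest p for Bu in siGFP cells. Hdac3 and Hdac8 were added for their positive estimates. The members and lists were chosen with earlier results of these data known. Promoters are from RefSeq (GRCm38.p6), and shared words, exons and the Hdac1 copy from GENCODE M21, whose coordinates equal those of the table for the 10 members. No pair of libraries of a group differed by less than the sampling noise. Plots used matplotlib 3.10.9.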

Additional observations from a re-analysis of the deposited data

Results flagged for a closer look

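Of 40 combinations of a member and a group, 2 held a library far from the rest of its group, about the 1 in 20 that chance gives. Sap18 had 37.0 CPM in siGFP DMSO replicate 5, against 32.9 to 33.5 CPM in the other 4 libraries of that group. Sap30 had 15.8 CPM in siGFP DMSO replicate 3, against 11.9 to 13.02 CPM in the other 4 libraries. Without that replicate the log2 fold change of Sap30 with Bu in siGFP cells was 0.31 (adjusted p = 0.0048).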

How the results depend on the processing

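No member reversed a called direction under any alternative. Members called with Bu in siGFP cells (2) became 4 with all 18 libraries in 1 fit, 1 without the libraries with rod transcripts and 1 with the nuclear-retained covariate (Rbbp4, not Hdac2 or Sap30), and 1 to 2 when 1 library was left out. With DESeq2 the 2 siGFP calls became 3, with Rbbp4 added, and the 3 siTGR5 calls became 2, with Sap30 lost. In siTGR5 cells, 3 became 1 in 1 fit of all libraries, 1 without the libraries with rod transcripts, 0 with the covariate (where none was called by edgeR) and 1 to 3 with 1 library left out. For siTGR5 against siGFP, 1 became 2 with library totals (Ing1 added), 2 with no filter on low counts and 1 to 2 with 1 library left out (Sap30 added without siTGR5 DMSO replicate 3). Called genes overall (4023) fell to 1141 with the covariate in siGFP cells. In siTGR5 cells they fell (4409) to 2812 without the libraries with rod transcripts and 2472 with the covariate. The covariate did not overlap between Bu and DMSO libraries of either siRNA, so these fits can hardly tell it apart from Bu. In the difference between siRNAs, 203 called genes became 388 with DESeq2, 411 with no filter, 12 without the libraries with rod transcripts, 111 with the covariate and 87 to 270 with 1 library left out. With library totals, siTGR5 against siGFP gave 2661 higher and 1661 lower genes, against 1978 and 2061. The cause was not tested. The low counts of Hdac1, Ing2 and Sap30 limit their precision.

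Replicate numbers showed no general pairing of the libraries, but pairing was not excluded. The correlation of deviations of same-numbered libraries ran between -0.23 and 0.22. It exceeded the highest one with another number for replicate 3 of Bu against DMSO in siGFP cells (0.2245 against 0.2234). The same held for replicate 5 of siTGR5 against siGFP in DMSO (0.15 against 0.053). In every other case it was lower. With the replicate block, Rbbp4 was called in siGFP cells (0.12, adjusted p = 0.0297), Sap18 gained and Sap30 lost its call in siTGR5 cells (adjusted p = 0.0437 and 0.0583), and 2 members were called for siTGR5 against siGFP, Sap30 being the second (-0.20, adjusted p = 0.0142).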
